A study of Homo sapiens with 4 samples.

Results

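The p53-regulated and stress-induced brakes on the cell cycle examined here are 10 genes: CDKN1A, BTG2, GADD45A, SFN, CCNG1, CCNG2, PLK2, PLK3, SERTAD1 and ZMAT3. They were chosen by name, and every array probe annotated with a member's current or older symbol was kept. This gave 16 of the 47323 probes in the value table, for 9 of the 10 genes, out of 20046 genes named on the array. BTG2, an anti-proliferative protein that recruits an mRNA deadenylase, has no probe named in the annotation used, so its level is not analysed here.

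HCT116, an established human colorectal carcinoma line that carries wild-type p53, was transfected with 40 nM siRNA for 72 h, and total RNA was hybridized to Illumina HumanHT-12 v4 bead arrays. A pair of arrays came from cells given a control siRNA (replicates 1 and 2). The other pair came from cells given an siRNA against LAS1L, a nucleolar protein needed to process the large-subunit ribosomal RNA precursor, with siRNA #1 on 1 array and siRNA #2 on the other. No label says that the control arrays came from separate cultures, so p-values measure the spread between these samples only, which may be technical for the controls and includes any difference between the siRNAs for the Las1L pair. RNA from whole cultures also cannot separate a change in every cell from a change in the share of cells that express a gene.

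The siRNA strands given in the labels are printed because they define the groups. Each is followed by a pair of deoxythymidines that is not shown.
Control siRNA: gaucauacgugcgaucaga
Las1L siRNA #1: cugauacgcuguaagcucu
Las1L siRNA #2: cauuuauacccagagugga

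When ribosome assembly is disturbed, free ribosomal components can bind MDM2, the ubiquitin ligase that degrades p53, and p53 accumulates. As a transcription factor p53 then raises genes that stop the cell cycle. CDKN1A encodes p21, which inhibits cyclin-dependent kinases (CDKs). SFN and GADD45A act on CDK1 before mitosis. The others are atypical cyclins, stress-responsive polo-like kinases and regulators of RNA or transcription.

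LAS1L itself was lower on both Las1L arrays. Its single probe gave signals of 770 and 717.5 with control siRNA, and 211.5 (siRNA #1) and 158.1 (siRNA #2) after LAS1L depletion, a log2 fold change of -2.02 (SE 0.14, adjusted p = 2.3e-07 by limma with an intensity trend and 0.0555 without it). The epithelial identity of the line was visible in 6 of its 7 marker genes (EPCAM, KRT8, KRT18, KRT19, CDH1 and CDX2), whose probes passed the filter described next, while the CLDN4 probe was above background on 0 arrays. Their summed signal was 24132 to 25811 on the control arrays and 24543 to 24788 on the Las1L arrays, and in the comparison that follows a CDH1 probe was higher (log2 0.43), a KRT18 probe lower (log2 -0.57) and 7 other probes not called. Of 14 probes for fibroblast, endothelial and leukocyte markers 10 were above background on 0 arrays, including those of PTPRC, CDH5, PECAM1 and PDGFRB. The other 4, for COL1A1, COL1A2, CD14 and LYZ, passed the same filter at low signals, with 63.7 (LYZ, siRNA #2) the highest. The summed signal of all 14 probes was 177 to 219 on the control arrays and 169 to 184 on the Las1L arrays.

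Las1L arrays were compared with control arrays to ask whether these brakes differ in level after LAS1L depletion. Signals are background-subtracted intensities, and a probe was tested if it exceeded a background limit of 28.1 on at least 2 of the 4 arrays. Fold changes are differences of mean log2 signal after values under 16 were set to 16. "Rose" and "fell" mean an adjusted p under 0.05 in limma with an intensity trend, which lets the assumed spread depend on brightness. Of the 10 member probes above the limit on all 4 arrays 6 rose, covering 4 genes (CDKN1A, GADD45A, SFN and ZMAT3), 1 fell, a probe of ZMAT3, and 3 were not called. Among all 14455 probes above the limit on every array 9.23% rose and 8.94% fell. The other 2 of the 12 tested member probes, 1 each of CDKN1A and CCNG2, were tested only because both Las1L arrays exceeded the limit while neither control array did, so the filter fixed their direction. They bring the member probes called higher to 8, where 8.12% of all 17689 tested probes rose and 7.7% fell, and CCNG2 is called on such a probe alone.

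Limits of these calls are the small design and the choice of fit. With no intensity trend limma passed 0 of the 17689 probes (lowest adjusted p = 0.0523), although 4266 of all tested probes and 8 of the 12 member probes had an unadjusted p under 0.05. Without the array of siRNA #2 the fit called 1764 probes in place of 2798, and 5 member probes higher in place of 8. That setting cannot test those 2 dim probes, which then have 1 array above background, and it also loses a GADD45A probe. With a floor of 50, and with no filter on dim probes, 0 member probes passed.

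**Figure D1:**
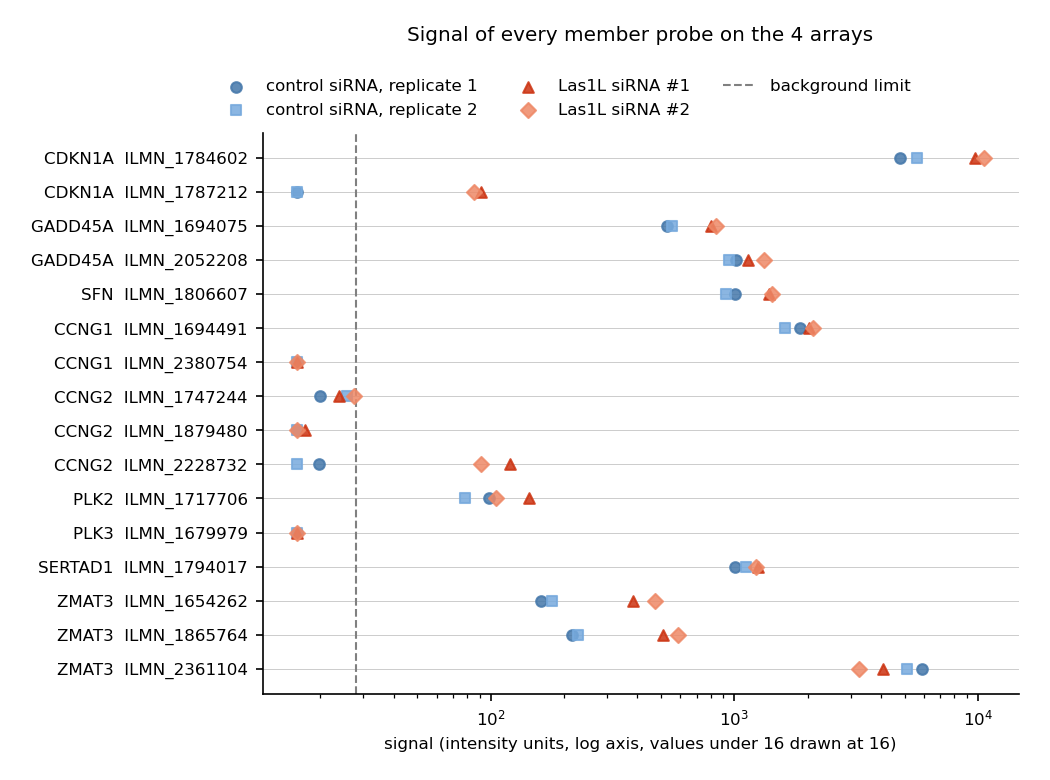
Signal of each of the 16 member probes on the 4 arrays, on a log axis in intensity units, with values under 16 drawn at 16 and the background limit of 28.1 as a dashed line. Both CDKN1A probes and 2 of the 3 ZMAT3 probes lie further right with Las1L siRNA, the ILMN_2361104 probe of ZMAT3 lies further left, and 4 probes stay left of the limit on all arrays.

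CDKN1A rose on its bright probe. The ILMN_1784602 probe gave 4799 and 5631 with control siRNA, and 9695 (siRNA #1) and 10591 (siRNA #2) after LAS1L depletion. Both Las1L arrays lay well above both controls, with means of 10143 ± 634 and 5215 ± 588 (SD, n = 2 each). This was a 1.95-fold rise, a log2 fold change of 0.96 (SE 0.10, adjusted p = 7e-06 by limma with the trend and 0.0676 without it).

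The second CDKN1A probe, ILMN_1787212, is annotated to another RefSeq transcript of the gene. It gave 3.3 and 15.2 with control siRNA, both not well above background, and 91.4 and 85.5 with siRNA #1 and #2. Against the lowest signal above background on the control arrays this was at least 3.15-fold higher, a bound that was not itself tested. The fitted log2 value had an adjusted p of 2.3e-04 by limma with the trend and 0.0523 without it. The filter fixed the order of these arrays, so the p is no support for the direction. The bound, unlike the fitted log2 value of 2.47, does not use the floor for the control arrays. With a floor of 50 the fitted value became 0.82 and did not pass.

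The listed start region of CDKN1A is shown because it belongs to the CDK inhibitor of the set. The annotated gene begins upstream of it, at chr6:36676463, so a start outside the window is not covered. The RefSeq window at chr6:36678464-36678763 (GRCh38.p14, plus strand, 250 bases before and 50 after the start) reads as follows, with each Sp1 box (GGGCGG, either strand) in capitals.
CDKN1A: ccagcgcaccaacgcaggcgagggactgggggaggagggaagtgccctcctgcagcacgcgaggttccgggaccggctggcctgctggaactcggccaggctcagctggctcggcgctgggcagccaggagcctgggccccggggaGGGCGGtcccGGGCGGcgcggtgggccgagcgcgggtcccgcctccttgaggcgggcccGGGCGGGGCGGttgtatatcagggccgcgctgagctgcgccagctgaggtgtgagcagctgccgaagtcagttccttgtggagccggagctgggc
It holds 4 Sp1 boxes, of which the last 2 overlap, and 0 copies of TATAAA. At least 1 Sp1 box was found in 10 of the 11 windows listed for 9 member genes, and in 44.95% of all 35116 windows of the same length. The windows listed for CCNG1 overlap and hold the same box, so they are not separate observations. GADD45A is not in that table.

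CCNG2, an atypical cyclin that is known to be more abundant in cells that leave the cycle, had 1 informative probe of 3. ILMN_2228732 gave 19.7 and 6.9 with control siRNA, both not well above background, 119.5 with siRNA #1 and 90.8 with siRNA #2. It was at least 3.71-fold higher than the lowest signal above background on the control arrays, a bound that was not itself tested. The fitted log2 value had an adjusted p of 1.1e-04 by limma with the trend and 0.0555 without it. This probe too was tested only because both Las1L arrays exceeded the limit, so its direction was fixed by the filter and the p does not support it. Its fitted log2 value of 2.55 fell to 1.06 with a floor of 50, where it did not pass. ILMN_1747244, annotated to the same RefSeq transcript, gave 19.9, 25.7, 23.8 and 27.4 on control replicates 1 and 2 and siRNA #1 and #2. These values lie just under the limit and the groups overlap, so the difference on ILMN_2228732 was not seen by this probe. The third probe, ILMN_1879480, reached 17.2 at most.

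CCNG1, a related cyclin and direct p53 target that brings a phosphatase to MDM2, did not pass. Its ILMN_1694491 probe gave 1866 and 1611 with control siRNA, and 2027 (siRNA #1) and 2103 (siRNA #2) after LAS1L depletion. All Las1L values were above the controls, but the gap between the control arrays was of similar size to the difference. The log2 fold change was 0.25 (95% interval 0.04 to 0.46, adjusted p = 0.095 by limma with the trend). Without control replicate 1 it was 0.36, and without control replicate 2 it was 0.15. The other CCNG1 probe, annotated to the same transcript, lay between -8.9 and 5.2 on the 4 arrays.

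CCNG2's start region is printed beside that of CDKN1A because these genes have the 2 probes tested only through the Las1L arrays. The size of their fitted values depends on the floor, so the windows do not stand for the strongest responders. The SERTAD1 window holds 5 Sp1 boxes, without a call for that gene, and the ZMAT3 windows hold 0 and 1. A link between Sp1 boxes and level was not tested. The CCNG2 window lies at chr4:77156957-77157256 (GRCh38.p14, plus strand) and holds 4 Sp1 boxes, in capitals.
CCNG2: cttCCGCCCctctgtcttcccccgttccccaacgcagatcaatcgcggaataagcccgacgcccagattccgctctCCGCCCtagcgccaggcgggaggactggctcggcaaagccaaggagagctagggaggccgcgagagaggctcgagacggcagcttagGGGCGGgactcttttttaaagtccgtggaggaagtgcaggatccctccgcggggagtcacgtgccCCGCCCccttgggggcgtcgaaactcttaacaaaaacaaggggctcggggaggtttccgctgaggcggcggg

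GADD45A, a stress-induced protein that binds PCNA and CDK1, rose on both probes but by different amounts. ILMN_1694075 gave 528.9 and 552.2 with control siRNA, and 798.7 (siRNA #1) and 838.4 (siRNA #2) after LAS1L depletion. The groups were far apart, with a log2 fold change of 0.60 (SE 0.11, adjusted p = 0.0012 by limma with the trend and 0.0878 without it). ILMN_2052208, annotated to the same transcript, gave 1012 and 954.6 with control siRNA, and 1139 and 1324 with siRNA #1 and #2. Its log2 fold change was 0.32 (SE 0.10), with an adjusted p of 0.0478 by limma with the trend, close to the threshold. That call was lost without control replicate 2 (log2 fold change 0.28) and without siRNA #2 (0.21).

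SFN, the 14-3-3 sigma protein that keeps CDK1 and cyclin B out of the nucleus, rose 1.46-fold. Its signals were 1002 and 921.3 with control siRNA, and 1387 (siRNA #1) and 1421 (siRNA #2) after LAS1L depletion. The Las1L arrays differed from each other by less than the control arrays did, and the groups did not overlap. The log2 fold change was 0.55 (SE 0.10, adjusted p = 0.0013 by limma with the trend and 0.102 without it).

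ZMAT3, an RNA-binding zinc-finger protein and direct p53 target, had 3 tested probes that did not share a direction. ILMN_1654262 gave 161.2 and 177.7 with control siRNA, and 384.1 (siRNA #1) and 471.4 (siRNA #2) after LAS1L depletion, a 2.51-fold rise (log2 1.33, SE 0.15, adjusted p = 1.8e-05 by limma with the trend). ILMN_1865764 gave 214.5 and 229 with control siRNA, 508.7 and 584.1 with siRNA #1 and #2, a 2.46-fold rise (log2 1.30, SE 0.13, adjusted p = 7e-06). Both probes thus gave a similar rise, and for both the siRNA #2 array was the higher one.

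The third ZMAT3 probe, ILMN_2361104, moved the other way. It gave 5913 and 5124 with control siRNA, and 4059 (siRNA #1) and 3256 (siRNA #2) after LAS1L depletion, with no overlap of the groups. It fell by 0.60 on the log2 scale (SE 0.11, adjusted p = 0.0013 by limma with the trend). The annotation assigns it to the same RefSeq transcript as ILMN_1654262, and ILMN_1865764 to a different cDNA record. Where in the gene each probe lies was not examined. Without the trend the adjusted p of these probes was 0.0584, 0.0555 and 0.149.

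**Figure D2:**
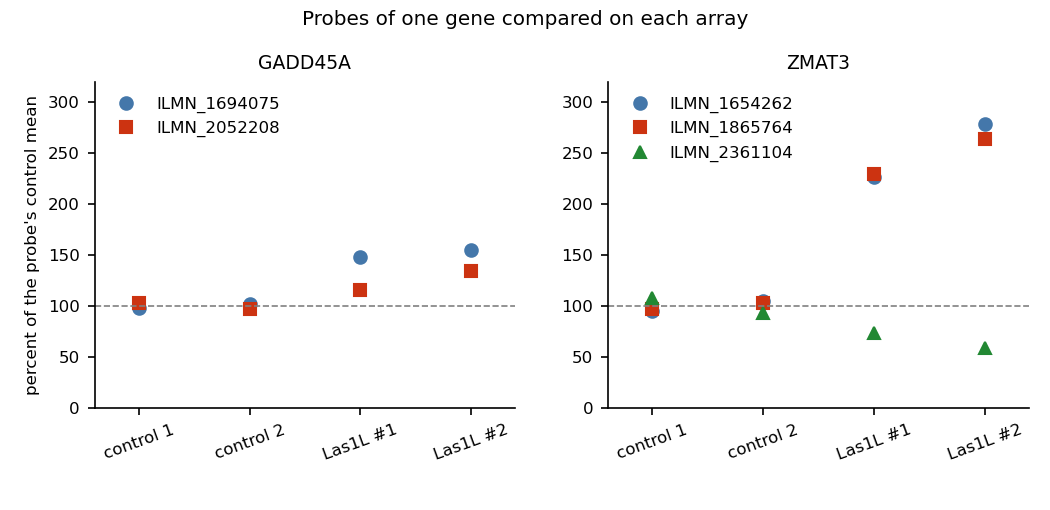
Signal of each probe of GADD45A and ZMAT3 on the 4 arrays, as a percent of the geometric mean of that probe's control signals, with 100 as a dashed line. The GADD45A probes reached 148% and 116% with siRNA #1, and 155% and 135% with siRNA #2, whereas 2 ZMAT3 probes reached 227% to 279% and the other was at 73.7% and 59.2%.

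A rule that keeps only the brightest probe of each gene would record ZMAT3 as fallen. With 1 probe per gene, 4 member genes were higher and 1 lower, and the lower one was ZMAT3. CCNG2 is among the 4 through its dim probe, whose direction the filter fixed. In that setting 2313 of all 10466 probes were called, in either direction.

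PLK2 and PLK3 are polo-like kinases that respond to stress. The PLK2 probe gave 98.8 and 78.2 with control siRNA, and 142.9 (siRNA #1) and 105.3 (siRNA #2) after LAS1L depletion. The siRNA #2 value lies close to the higher control value. The log2 fold change was 0.48 (95% interval 0.01 to 0.95) and missed the threshold (adjusted p = 0.16 by limma with trend). The PLK3 probe gave -9.1, 4.1, 3.5 and 4 on control replicates 1 and 2 and siRNA #1 and #2, so PLK3 was not well above background on any array and has no fold change.

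PLK2 is also the member whose listed start region holds a match to the p53 half-site, the 10-base motif of which p53 binds 2 copies. The match lies 132 bases before the start, in the window at chr5:58460037-58460336 (GRCh38.p14, minus strand), and is in capitals.
PLK2: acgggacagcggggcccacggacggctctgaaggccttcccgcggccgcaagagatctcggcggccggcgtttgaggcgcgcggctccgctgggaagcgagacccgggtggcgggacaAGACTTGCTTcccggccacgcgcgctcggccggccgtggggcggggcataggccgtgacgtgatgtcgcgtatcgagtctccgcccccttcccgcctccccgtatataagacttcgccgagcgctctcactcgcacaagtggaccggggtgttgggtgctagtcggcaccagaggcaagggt
Such a half-site was found in 1 of the 11 member windows and in 6.63% of all 35116 windows. The search read both strands of windows of 300 bases, so it says nothing of elements further from the start, where p53 sites of several of these genes are known to lie.

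SERTAD1 binds CDK4 and regulates E2F-driven transcription, and is known more as an activator of CDK4 than as a brake. Its probe gave 1010 and 1120 with control siRNA, and 1245 (siRNA #1) and 1228 (siRNA #2) after LAS1L depletion. The groups did not overlap, but the difference was small, with a log2 fold change of 0.22 (95% interval 0.01 to 0.43). It missed the threshold (adjusted p = 0.158 by limma with trend).

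**Figure D3:**
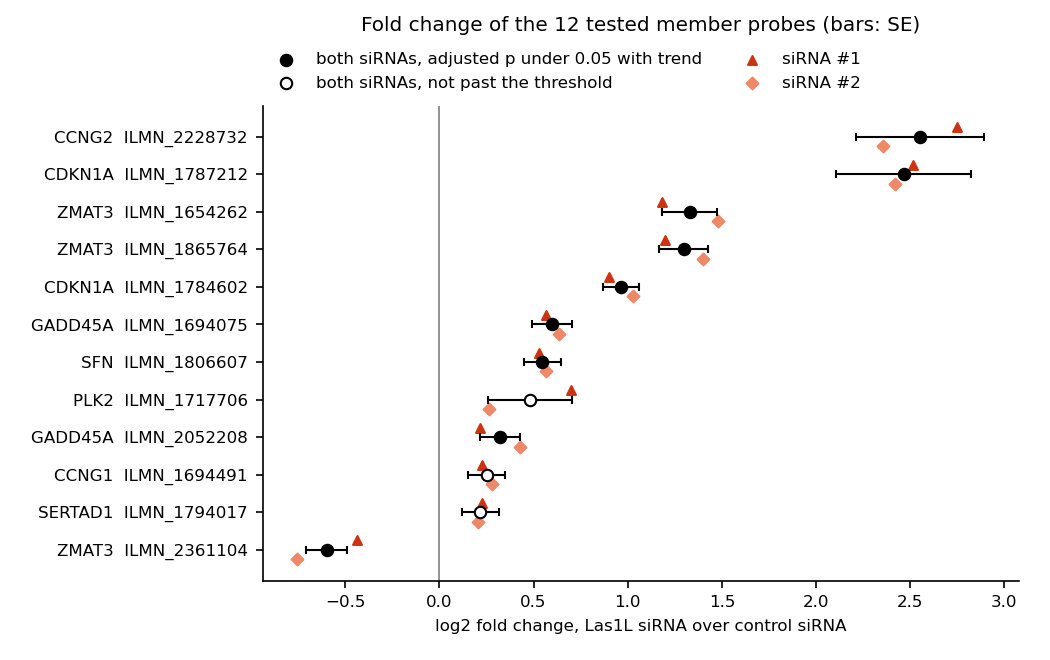
Log2 fold change of the 12 tested member probes, with the standard error of the intensity-trend fit as bars, filled points for an adjusted p under 0.05, and the value of each siRNA against the control mean as triangles and diamonds. The values run from -0.60 for a ZMAT3 probe to 2.55 for a CCNG2 probe, and both siRNAs lie on the same side of 0 for each probe. For the CCNG2 probe and the dim CDKN1A probe the filter fixed that side, and both siRNAs share the same control mean.

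The siRNAs were then set side by side, which asks whether the members depend on the siRNA used. Both were compared with the same control arrays, so their values are not independent. The ILMN_1784602 probe of CDKN1A changed by 0.90 (log2) under siRNA #1 and by 1.03 under siRNA #2. SFN had 0.53 and 0.56, and the ILMN_1694075 probe of GADD45A 0.56 and 0.63. For ZMAT3, ILMN_2361104 had -0.44 and -0.76, while ILMN_1654262 had 1.18 and 1.48. PLK2 had 0.70 and 0.26, the widest gap among the tested member probes. The siRNA #2 array was higher on the CDKN1A (ILMN_1784602), GADD45A, SFN and CCNG1 probes and on the ZMAT3 probes that rose. The siRNA #1 array was higher on the CCNG2, PLK2 and SERTAD1 probes, on ILMN_1787212 of CDKN1A and on the ZMAT3 probe that fell. LAS1L was lower with siRNA #2, at -1.81 and -2.23.

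Tested directly in a limma fit of 3 groups with the trend, 0 of the 12 member probes differed between the siRNAs, and 0 had an unadjusted p under 0.05. Over all 17689 tested probes 0% were called, while 432 had an unadjusted p under 0.05. Without the trend limma also called 0, with 838 under 0.05. The count depends on the treatment of dim values: it was 625 with a floor of 50, 4 among probes above background on every array, and 2779 with no filter. In 98.2% of those 2779 both control arrays were at the floor. The member probes called in these settings were 0, 0 and 1, the last being ILMN_1879480 of CCNG2, which is above background on 0 arrays. The difference for PLK2 was -0.44 (SE 0.29) and that for ILMN_2361104 of ZMAT3 -0.32 (SE 0.15). With 1 array per siRNA, assumed to vary like the controls, these values do not show that the siRNAs act alike.

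Among all tested probes, 28% had each Las1L array above each control array and 27.9% had each below. Of the 12 tested member probes 11 lay above and 1 below. The 2 dim probes of CDKN1A and CCNG2 passed the filter only in this order. The median log2 fold change of all tested probes was 0.00022. Each array has a median signal of 14.9, as after normalization between arrays, which favours a value near 0 and even shares above and below.

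**Figure D4:**
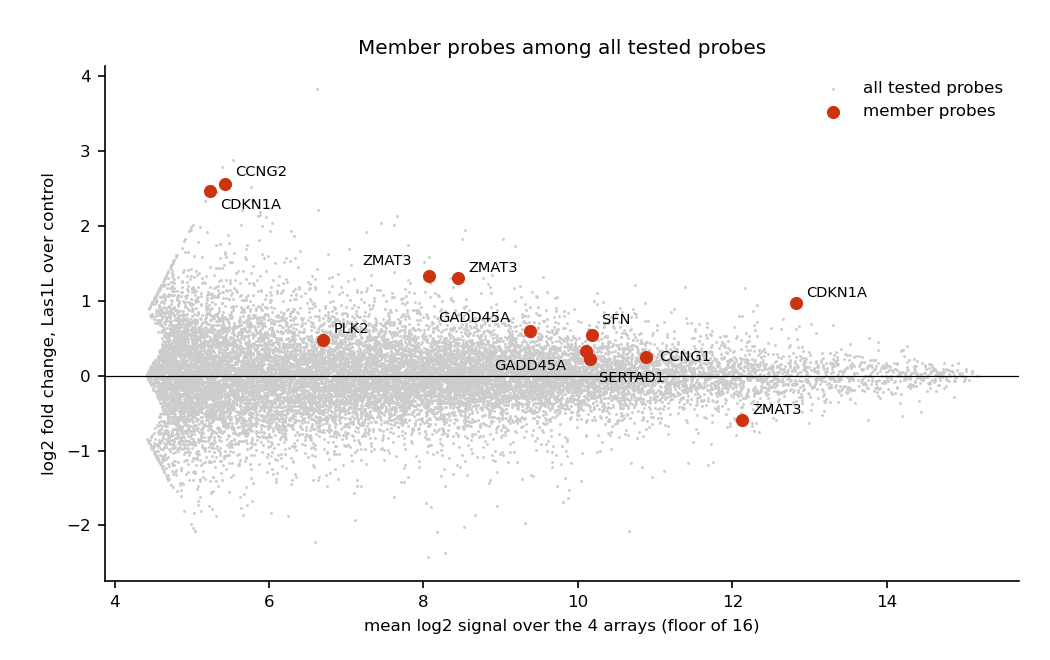
Log2 fold change against mean log2 signal over the 4 arrays for all 17689 tested probes (grey) and the 12 tested member probes (red). The spread of fold changes is wider among dim probes, where the CCNG2 probe at 2.55 and a CDKN1A probe at 2.47 lie, while the bright CDKN1A probe at 0.96 and the ZMAT3 probe at -0.60 lie where most probes stay close to 0.

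The family relatives of the members moved both ways. Of 32 tested probes for 22 relatives 2 rose and 4 fell (6.25% and 12.5%, against 8.12% and 7.7% of all tested probes), with a median log2 fold change of -0.08. TOB1, an anti-proliferative protein of the same family as BTG2, rose from 1263 and 1413 to 2562 and 2672, a log2 fold change of 0.97 (SE 0.10, adjusted p = 5.9e-06 by limma with the trend and 0.0605 without it). TOB2, also of that family, lay lower, at 121.8 and 91 with control siRNA and 64.7 and 75.4 with Las1L siRNA. Its log2 fold change of -0.59 did not pass, nor did the values of -0.02 and 0.22 on the BTG3 probes. ZMAT2, a splicing factor, rose by 0.34. PLK4, which drives centriole duplication, fell from 985.3 and 931.6 to 611.8 and 610.4, a log2 fold change of -0.65 (SE 0.10). SERTAD2 fell by 0.42.

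CDKN1B, the p27 relative of p21, had log2 fold changes of 0.21 and -0.20 on its 2 probes, and CDKN1C had -0.12. GADD45B had -0.17, and the GADD45G probe was above background on 0 arrays. None of these 4 genes had a probe that passed. Of 10 tested probes for 6 relatives of SFN in the 14-3-3 family, 2 fell, 0 rose and 8 were not called. Those that fell were 1 of 2 probes of YWHAB (by 0.43) and 1 of 2 of YWHAZ (by 0.37), and the uncalled ones lay between -0.25 and 0.25 (log2). BTG1 was at -0.08 (log2) without passing.

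The kinases, cyclins and partners on which the members act were lower more often than higher. Of 26 tested probes for 18 genes 8 fell, covering 7 genes, and 1 rose, with a median of -0.19 (30.8% fell, against 7.7% of all tested probes). CDC25A, a phosphatase that activates CDK2, fell on both probes, from 527.4 and 573.5 to 244.1 and 256.3 on the ILMN_1711005 probe (log2 -1.14, SE 0.12, adjusted p = 1.7e-05 by limma with the trend) and by 1.16 on the other. The probe that rose was that of CCND1, cyclin D1, from 4972 and 4996 to 7942 and 8904 (log2 0.75, SE 0.09, adjusted p = 3.5e-05 by limma with the trend). The E2F1 probe was at 0.41 (log2) without passing.

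Among 6 tested probes for 4 other CDK inhibitors, 1 rose, a CDKN2A probe with a log2 fold change of 0.53 (SE 0.17), and 0 fell, with a median of -0.08. These shares, 16.7% and 0%, rest on 6 probes and stand against 8.12% and 7.7% of all tested probes. The other tested CDKN2A probe had 0.03. CDKN2B had 0.31 and -0.21, and 1 probe of CDKN2D had -0.21. These did not pass.

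Other p53 targets, on a list that holds no member, were mostly higher. Of 27 tested probes for 20 genes 19 rose and 0 fell (70.4%, against 8.12% of all tested probes), with a median of 0.73. TP53I3, an oxidoreductase, had a log2 fold change of 2.13 and SESN1, a sestrin that restrains mTORC1, 2.01. At the low end, a PMAIP1 probe had -0.26 and an RRM2B probe 0.0034, and neither passed. For PMAIP1 too the probes differed, since its other probe rose by 0.45 (adjusted p = 0.009 by limma with the trend).

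Genes known to be lowered through p21 and the DREAM repressor complex had 6 of 24 tested probes lower and 0 higher (25% fell, against 7.7% of all tested probes), with a median of -0.20. The list shares 9 tested probes with that of the kinases, cyclins and partners, 1 of which fell (CCNA2), so the shares of these lists are not separate observations. PLK4 is on this list as well as among the relatives, and a probe of FOXM1, a transcription factor of the mitotic programme, fell by 0.65 (SE 0.17). A CDC25C probe was at 0.16 (log2) without passing.

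**Figure D5:**
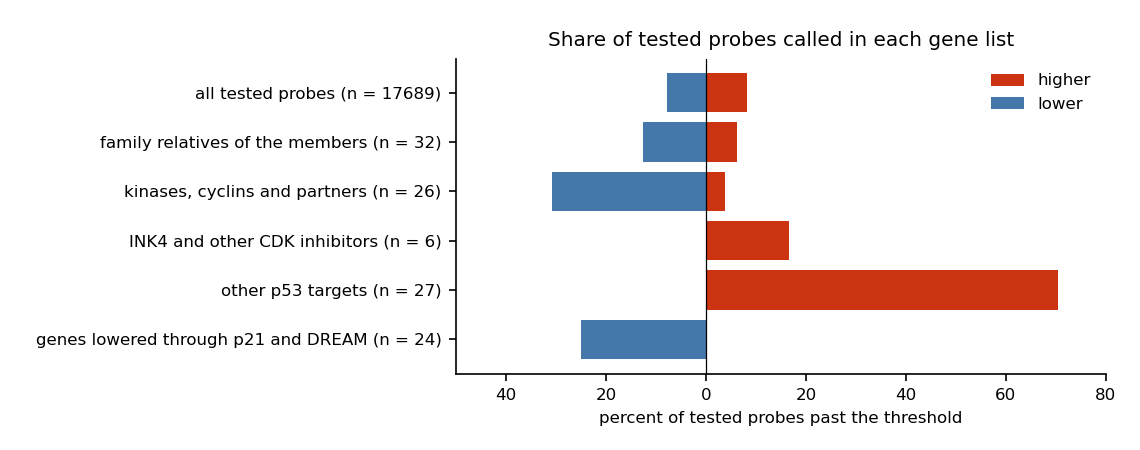
Percent of tested probes that rose (red, to the right) or fell (blue, to the left) in the intensity-trend fit, for all tested probes and 5 gene lists, with the number of tested probes in brackets. Other p53 targets reach 70.4% to the right, and the kinases, cyclins and partners 30.8% to the left.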

How the data were processed

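The deposited probe intensity values are linear and background-subtracted as read from the values: 26.9% lie below 0 on each array, and each array has a median of 14.9, as after normalization between arrays. GenomeStudio is named per the submitters' processing notes, with no version. Its background and normalization options are not stated in the labels. The 8 value columns of a non-normalized table match no sample's labels and were left out.

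Probe names came from a platform annotation, updated by Entrez ID to RefSeq symbols (30074 matched). Of the probes, 30113 had 1 symbol, 8 several and 17202 none. The noise, 17.1 units, is the root mean square of values below 0, and the background limit is its one-sided 0.05 point. The test was limma 3.58.1 (R 4.3.3), lmFit and eBayes with an intensity trend, on log2 values, two-sided, with Benjamini-Hochberg adjustment over all 17689 tested probes, and each probe was kept separately. The shared variance weighed as 13.8 degrees of freedom beside 2 per probe. Members, lists and the choice of a trend were made with earlier results of these data known. All member probes are named. Of the other lists, relatives could be named freely, and otherwise the 2 highest and 2 lowest tested probes by fold change. PMAIP1's second probe was chosen after its values were seen. The number of arrays limits the precision. Promoter windows are those of RefSeq on GRCh38.p14.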

Additional observations from a re-analysis of the deposited data

How the results depend on the processing

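The fold change of each of the 12 tested member probes was recomputed under 14 alternatives, which gave 158 of 168 possible values. Of the 10 others, 4 were probes dropped in the choice of 1 probe per gene, and 6 were the dim probes of CDKN1A and CCNG2, which the filter removes above background on every array and without either Las1L array. Of the 158 values 127 kept their side of the threshold, 29 lost the call and 2 gained it. Their sign is no test of robustness. The groups did not overlap on any of these probes, so no floor, offset or left-out array could reverse it. The other settings left the fold change as it was. The count of 2798 probes called was 0 with no intensity trend, 48 at a floor of 50 and 0 with dim probes included, and lay between 1764 and 3183 with any 1 array removed. The 8 member probes called higher became 0, 0 and 0 in the same settings and 4 with 1 probe per gene, which keeps fewer probes, and lay between 5 and 9 with any 1 array removed. The 1 called lower became 0 in those first 3 settings and was 1 in each setting that left out an array. Between the siRNAs 0 probes were called, against 4 in the set above background on every array, 2779 with no filter and 625 at a floor of 50. At that floor 16.2% of probes had no spread left within groups, and with no filter 38% had none. The cause of the lost calls was not tested. Where an array was left out, its partner was assumed to vary like the other group. Without either control array the shared variance took infinite weight, so calls in those fits do not use a probe's own spread. No replicate number in the labels pairs a control array with a Las1L array.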
